A study of Mus musculus with 12 samples.

Results

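Mitosis genes encode the proteins that carry a cell from the end of G2 through chromosome segregation and cytokinesis. 44 such genes, listed by their known roles, were followed on 12 arrays of mouse embryonic fibroblasts, connective tissue cells grown from C57BL/6 embryos of E12.5 to E13.5. Of the 44 genes, all were on the array and 43 were tested, among 14444 tested of 21367 named genes on the array. Cenpf was the exception, because its probe was not well above background on all 3 arrays of any group.

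The 4 groups of 3 arrays, described by the submitters as independent biological replicates, differed in the viral vectors they carried. RASV12-first cells received the vector for the oncogenic RASV12 and then a vector for a short hairpin RNA against p53 mRNA. shp53-first cells received the same pair of vectors in the opposite order. RASV12 cells carried the RASV12 vector alone, and shp53 cells the short hairpin alone. No array came from cells without a vector, so every comparison is between transduced cells, and the promoters of the vectors, the RAS gene used and the times between the transductions are not given in the sources used here. The title of the series asks how transformation that follows a senescent phase compares with transformation that does not.

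As background, entry into mitosis is driven by cyclin B bound to Cdk1, which the Cdc25 phosphatases activate and the kinases Plk1 and Aurora A promote. Exit begins when Cdc20 turns on the anaphase-promoting complex, an E3 ubiquitin ligase that destroys securin and the cyclins once every kinetochore is attached. Most of these genes are transcribed together late in the cell cycle by FoxM1 and by the MuvB complex with B-Myb. They are repressed in resting and senescent cells by the DREAM complex, which p53 engages through p21, and DREAM and MuvB reach their targets through the CHR, a short promoter element that often lies close to CCAAT boxes bound by NF-Y.

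That shared promoter layout is shown first, because it is a feature the genes share that was not used to choose them. RefSeq promoters (build GRCm38.p6, 250 bases before to 50 bases after the start site) were at hand for 35 of the 44 genes, with 37 promoters. The other 9 were Aurkb, Ccna2, Cdc25c, Dlgap5, Foxm1, Incenp, Kif20a, Smc4 and Tpx2. The CHR letters TTTGAA, searched on both strands, stood in 27 of the 37 promoters (73%), and in 17.9% of the 32851 promoters of all genes in the same table. The variant TTTAAA stood in 24.3%, against 13.2% of all promoters, and either form in 30 of 37 (81.1%), against 27.6%. A CCAAT box on either strand stood in 73% of the mitosis promoters, against 37.4% of all, and both elements together in 70.3%, against 10.7%. TTTGAA and TTTAAA cannot be the same site, and either may share an end letter with a CCAAT box. The 36 promoters of DNA replication genes, an S-phase class that is largely driven by E2F, held a CHR form in 25% and a CCAAT box in 58.3%. These shares are descriptions of letters in a window and show no binding.

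The promoters of cyclins B1 and B2, Cdc20, Plk1 and Cdk1 are printed from 150 bases before to 30 bases after the start site, 5′ to 3′ on the strand of the gene, with CHR forms and CCAAT boxes of either strand (ATTGG on the opposite one) in capitals. They were taken from a short list of members whose promoters hold a CHR form, so a CHR form in each was fixed by the choice. They lie at chr13:100786457-100786636 (minus strand), chr9:70421525-70421704 (minus), chr4:118437314-118437493 (minus), chr7:122159285-122159464 (plus) and chr10:69352883-69353062 (minus).
Ccnb1: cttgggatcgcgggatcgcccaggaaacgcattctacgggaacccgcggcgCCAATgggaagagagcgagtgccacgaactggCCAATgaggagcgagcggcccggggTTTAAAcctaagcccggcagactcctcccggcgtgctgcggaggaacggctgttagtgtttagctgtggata
Ccnb2: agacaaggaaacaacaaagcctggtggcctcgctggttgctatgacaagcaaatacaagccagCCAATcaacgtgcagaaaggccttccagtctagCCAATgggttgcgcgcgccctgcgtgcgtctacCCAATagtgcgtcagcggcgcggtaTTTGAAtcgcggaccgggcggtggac
Cdc20: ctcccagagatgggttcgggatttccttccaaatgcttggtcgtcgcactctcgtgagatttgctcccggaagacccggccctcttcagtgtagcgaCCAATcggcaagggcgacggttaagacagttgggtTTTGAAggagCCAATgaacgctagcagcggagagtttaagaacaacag
Plk1: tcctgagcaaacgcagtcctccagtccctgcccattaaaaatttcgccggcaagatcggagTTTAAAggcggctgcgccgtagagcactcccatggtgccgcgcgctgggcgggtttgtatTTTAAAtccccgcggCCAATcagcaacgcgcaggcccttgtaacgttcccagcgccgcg
Cdk1: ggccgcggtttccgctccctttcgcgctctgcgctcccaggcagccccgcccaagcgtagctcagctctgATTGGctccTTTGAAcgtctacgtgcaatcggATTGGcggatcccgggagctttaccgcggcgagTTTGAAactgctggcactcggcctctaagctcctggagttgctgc
Ccnb1 held 2 CCAAT boxes at -99 and -67 and a TTTAAA form at -42, counted from the start site to the first base of the motif. Ccnb2 held 3 CCAAT boxes, at -87, -54 and -21, upstream of a TTTGAA at 5. In Cdc20 the TTTGAA at -18 lay between CCAAT boxes at -53 and -8. In Plk1, 2 TTTAAA forms at -89 and -29 stood before a CCAAT box at -14. Cdk1 carried TTTGAA at -71 and -15, and its boxes at -80 and -48 were on the opposite strand. These positions are those in the printed bases. Outside them lay a TTTGAA of Ccnb2 at -167, a TTTGAA of Plk1 at 31 and an opposite-strand box of Cdk1 at -208.

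Levels below are log2 processed signals after the 75th percentile of their own array was subtracted, so that 0 is the level which 75% of the spots did not reach, and levels are compared between arrays and never between genes. Values on 3 arrays are given in the order of replicates 1, 2 and 3. As a check of the labels, Trp53, the target of the hairpin, read -4.14, -4.01 and -3.83 in RASV12-first cells, -3.98, -3.43 and -3.44 in shp53-first cells, -0.35, -0.75 and -0.58 in RASV12 cells and -3.22, -3.55 and -3.06 in shp53 cells, so that all 9 arrays with the hairpin lay below all 3 without it. Hras read 0.79, 1.47 and 1.64 in RASV12-first cells, 1.34, 2.08 and 1.99 in shp53-first cells, 2.63, 2.36 and 2.84 in RASV12 cells and 2.05, 2.19 and 2.0 in shp53 cells; a probe for the mouse gene need not read the vector's RAS. All 11 fibroblast markers were well above background on all 12 arrays. Of 7 epithelial markers, Epcam, Cdh1 and Cldn4 were well above background on none of the arrays, Krt5 on 1, Krt8 on 2, Krt14 on 5 and Krt18 on all 12. Of 7 endothelial markers, Pecam1 and Kdr were above background on all 12 arrays, Cdh5 on 6, Cldn5 on 5, Vwf on 3, Emcn on 1 and Tek on none. Of 12 macrophage markers, 6 were above background on all 12 arrays and the other 6 on 2 to 7. 1 array in each group stood apart from a closely similar pair (r = 0.9933 to 0.9977 over all genes within the pairs, 0.9669 to 0.9807 in all other same-group pairs). These were replicate 1 of the RASV12-first and shp53-first groups and replicate 2 of the RASV12 and shp53 groups.

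In the groups with both vectors, the mitosis genes differed more than most genes between these arrays. In RASV12-first cells, replicate 1 read lower than the mean of replicates 2 and 3 for 42 of 43 mitosis genes, with a median difference of -1.74. In shp53-first cells the same held for 42 of 43, with a median of -1.99, and in each of these groups 41 genes differed by more than 1 log2 unit, as did 16% and 14.7% of all genes. Replicate 2 of the RASV12 group was lower for 42 genes (median -0.50), and replicate 2 of the shp53 group was higher for 40 of 42 genes (median 0.40). In RASV12 and shp53 cells 1 and 0 mitosis genes differed by more than 1 log2 unit, as did 7.04% and 9.97% of all genes. Of all genes, 43.1%, 51.8%, 53.3% and 44.7% read lower on the array that stood apart in RASV12-first, shp53-first, RASV12 and shp53 cells. Pttg1 was the gene that ran the other way in the RASV12-first, shp53-first and RASV12 groups. The median SD over 3 arrays was 1.01 in RASV12-first and 1.15 in shp53-first cells, but 0.29 in RASV12 and 0.25 in shp53 cells, where all genes had medians of 0.28, 0.26, 0.19 and 0.17. Other markers differed on the same arrays. On replicate 1, fibroblast markers read higher for 11 of 11 in RASV12-first cells (median 0.54) and for 9 of 11 in shp53-first cells (0.43), and the epithelial keratin gene Krt18 by 2.44 and 2.89. Their part in the mitosis values was not tested. Whether the closely similar pair in a group came from a shared culture is not settled by the labels or the values. If it did, a group would hold 2 independent samples rather than 3, and fits on the pairs alone would measure spread within a culture. The counts of mitosis genes called are therefore given with all arrays, without the 4 that stand apart, and with each closest pair averaged to 1 value.

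**Figure D1:**
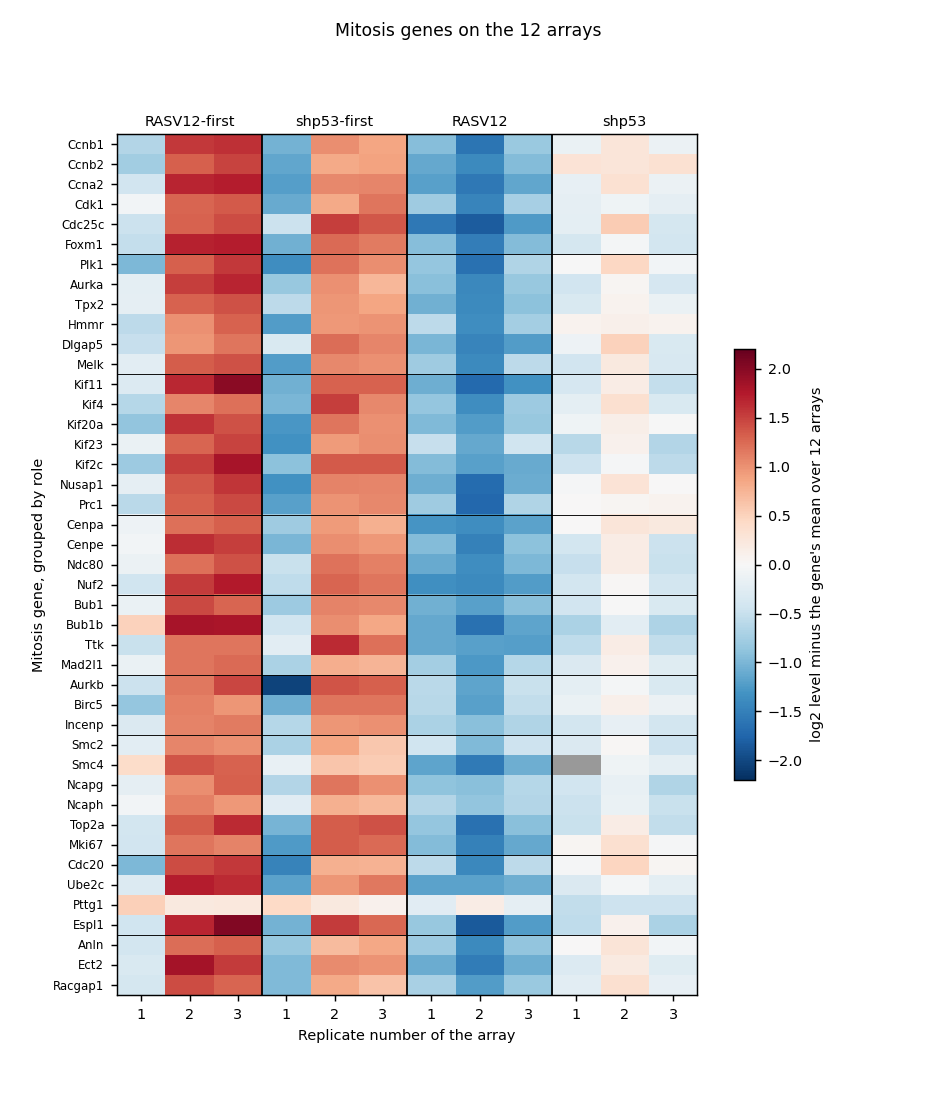
Level of each of the 43 tested mitosis genes (rows, grouped by role) on each of the 12 arrays (columns, by group and replicate), coloured by the log2 level minus the mean of that gene over the arrays (grey: the spot of Smc4 left out). Replicates 2 and 3 of RASV12-first and shp53-first cells are the highest columns, replicate 1 of those groups reads lower for 42 of 43 genes in each, and the RASV12 columns are lower than the shp53 columns for most genes.

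The cyclin-CDK switch was highest on replicates 2 and 3 of both groups with a pair of vectors. Ccnb1, cyclin B1, read 1.13, 3.32 and 3.37 in RASV12-first cells, 0.73, 2.79 and 2.64 in shp53-first cells, 0.82, 0.15 and 0.95 in RASV12 cells and 1.61, 2.02 and 1.63 in shp53 cells. Its catalytic partner Cdk1 read 1.92, 3.27 and 3.32 in RASV12-first cells, 0.87, 2.82 and 3.15 in shp53-first cells, 1.20, 0.53 and 1.24 in RASV12 cells and 1.78, 1.89 and 1.78 in shp53 cells. Ccna2, cyclin A2, which serves S phase and the approach to mitosis, read 0.87, 2.98 and 3.02 in RASV12-first cells, 0.08, 2.36 and 2.36 in shp53-first cells, 0.09, -0.27 and 0.15 in RASV12 cells and 1.11, 1.63 and 1.17 in shp53 cells. For all of them the 4 arrays of replicates 2 and 3 with both vectors lay above all 6 arrays with 1 vector, and the 3 RASV12 arrays lay below the 3 shp53 arrays. Replicate 1 of the RASV12-first group lay above the RASV12 arrays for these genes, whereas replicate 1 of the shp53-first group lay within their range.

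Foxm1, the transcription factor of the late cell cycle, read -1.36, 0.86 and 0.90 in RASV12-first cells, -1.90, 0.42 and 0.30 in shp53-first cells, -1.77, -2.36 and -1.79 in RASV12 cells and -1.22, -0.87 and -1.24 in shp53 cells. Cdc25c, a phosphatase that removes the inhibitory phosphates from Cdk1, read -4.31, -2.55 and -2.41 in RASV12-first cells, -4.32, -2.32 and -2.48 in shp53-first cells, -5.42, -5.67 and -5.10 in RASV12 cells and -4.06, -3.29 and -4.23 in shp53 cells, and its probe was well above background on 2 of the 3 RASV12 arrays. Foxm1 on replicate 1 of the shp53-first group lay within the RASV12 range, and Cdc25c on the same array lay above it. Ccnb2, cyclin B2, spanned 0.71 to 3.60 over the 12 arrays, lowest on RASV12 replicate 2 and highest on RASV12-first replicate 3.

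Among the mitotic kinases and spindle assembly factors, Plk1, the polo-like kinase, read 1.10, 3.41 and 3.65 in RASV12-first cells, 0.73, 3.28 and 3.12 in shp53-first cells, 1.24, 0.45 and 1.43 in RASV12 cells and 2.08, 2.54 and 2.03 in shp53 cells. Aurka, the spindle pole kinase Aurora A, read 1.85, 3.59 and 3.73 in RASV12-first cells, 1.23, 3.06 and 2.78 in shp53-first cells, 1.14, 0.65 and 1.23 in RASV12 cells and 1.64, 2.10 and 1.68 in shp53 cells, and Tpx2, its activator on spindle microtubules, read 0.69, 2.18 and 2.29 in RASV12-first cells, 0.31, 1.85 and 1.75 in shp53-first cells, -0.17, -0.52 and -0.02 in RASV12 cells and 0.54, 0.96 and 0.73 in shp53 cells. RASV12-first replicate 1 lay above all RASV12 arrays for Aurka and Tpx2, but within their range for Plk1. Dlgap5, a kinetochore fibre stabiliser, read -2.97, -1.48 and -1.27 in RASV12-first cells, -2.78, -1.22 and -1.37 in shp53-first cells, -3.47, -3.90 and -3.69 in RASV12 cells and -2.57, -1.94 and -2.78 in shp53 cells. Unlike Plk1 and Aurka, its replicates 2 and 3 overlapped between the 2 orders. Hmmr, a spindle-associated protein, and the kinase Melk spanned 2.66 and 2.82 log2 units over the arrays, each lowest on RASV12 replicate 2 and highest on RASV12-first replicate 3.

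Of the spindle motors and microtubule bundlers, Kif11, the kinesin that pushes the spindle poles apart, read -2.29, -0.34 and -0.01 in RASV12-first cells, -3.05, -0.70 and -0.70 in shp53-first cells, -3.07, -3.71 and -3.33 in RASV12 cells and -2.37, -1.83 and -2.52 in shp53 cells. Its range over the 12 arrays, 3.70 log2 units, was exceeded only by that of Espl1, at 3.89, among the 43 genes. The chromokinesin Kif4, the depolymerising kinesin Kif2c, Kif20a and Kif23, which act at the spindle midzone, and the bundlers Prc1 and Nusap1 spanned between 2.81 and 3.26. For Kif20a and Kif23 the lowest array was replicate 1 of the shp53-first group, and for the others of this class it was RASV12 replicate 2.

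At the kinetochore, Cenpa, the histone H3 variant that marks centromeres, read 0.25, 1.58 and 1.68 in RASV12-first cells, -0.42, 1.30 and 1.15 in shp53-first cells, -0.92, -1.01 and -0.80 in RASV12 cells and 0.38, 0.63 and 0.58 in shp53 cells. Cenpe, a kinesin that carries chromosomes to the spindle equator, read 2.30, 3.99 and 3.89 in RASV12-first cells, 1.36, 3.38 and 3.31 in shp53-first cells, 1.40, 0.87 and 1.45 in RASV12 cells and 1.95, 2.53 and 1.89 in shp53 cells. Both were lower on all RASV12 arrays than on any shp53 array, and Cenpa on every array with both vectors exceeded all RASV12 arrays. Cenpf, the untested gene, read -6.39, -4.87 and -4.89 in RASV12-first cells, -8.14, -6.03 and -5.88 in shp53-first cells, -7.31, -7.96 and -8.32 in RASV12 cells and -7.23, -6.57 and -7.24 in shp53 cells, and was well above background on 3 of the 12 arrays, so most of these values have no order. Ndc80 and Nuf2, subunits of the complex that holds microtubule ends, were above all RASV12 arrays on every array with both vectors.

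The spindle checkpoint delays anaphase until kinetochores are attached. Its kinase Bub1 read -0.67, 0.93 and 0.76 in RASV12-first cells, -1.32, 0.57 and 0.53 in shp53-first cells, -1.58, -1.73 and -1.44 in RASV12 cells and -0.95, -0.54 and -0.86 in shp53 cells. Bub1b, which encodes BubR1, a part of the inhibitor of Cdc20, read -0.61, 0.70 and 0.68 in RASV12-first cells, -1.54, -0.08 and -0.26 in shp53-first cells, -2.24, -2.76 and -2.28 in RASV12 cells and -1.81, -1.35 and -1.80 in shp53 cells. Ttk, the kinase Mps1 that starts the signal, read -5.03, -3.36 and -3.36 in RASV12-first cells, -4.77, -2.89 and -3.32 in shp53-first cells, -5.66, -5.73 and -5.74 in RASV12 cells and -5.10, -4.37 and -5.08 in shp53 cells, and was well above background on 1 of the 3 RASV12 arrays. All 3 genes lay above the RASV12 arrays on every array with both vectors. Bub1b on all 3 RASV12-first arrays also lay above all shp53 arrays, which held for Ttk and Bub1 on replicates 2 and 3 alone. Mad2l1, the gene for Mad2, spanned 2.50 log2 units, from RASV12 replicate 2 to RASV12-first replicate 3.

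In the chromosomal passenger complex, which corrects faulty attachments, Birc5, or survivin, read 3.04, 5.0 and 4.86 in RASV12-first cells, 2.82, 5.06 and 5.06 in shp53-first cells, 3.29, 2.70 and 3.35 in RASV12 cells and 3.74, 4.0 and 3.76 in shp53 cells. The kinase Aurkb read -5.04, -3.41 and -3.11 in RASV12-first cells, -6.61, -3.19 and -3.26 in shp53-first cells, -5.16, -5.73 and -5.06 in RASV12 cells and -4.78, -4.61 and -4.90 in shp53 cells, with 2 of the 3 shp53-first and 2 of the 3 RASV12 arrays well above background. In both, replicate 1 of the RASV12-first and shp53-first groups lay below all shp53 arrays and replicates 2 and 3 above them. The scaffold Incenp spanned 2.05 log2 units and was above all RASV12 arrays on every array with both vectors.

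Among the genes for chromosome condensation and decatenation, Top2a, the topoisomerase that untangles sister DNA, read -0.15, 1.59 and 1.90 in RASV12-first cells, -0.77, 1.59 and 1.66 in shp53-first cells, -0.60, -1.38 and -0.66 in RASV12 cells and -0.22, 0.43 and -0.28 in shp53 cells. Mki67, the chromosome surface protein Ki-67 and a common proliferation marker, read 1.80, 3.39 and 3.31 in RASV12-first cells, 0.97, 3.56 and 3.47 in shp53-first cells, 1.27, 0.74 and 1.10 in RASV12 cells and 2.26, 2.58 and 2.19 in shp53 cells. Both spread widely within the groups with both vectors, and the shp53-first replicate 1 value lay within the RASV12 range for each. Smc4, a core subunit of condensin, read 2.83, 3.81 and 3.72 in RASV12-first cells, 2.26, 3.04 and 2.98 in shp53-first cells and 1.26, 0.88 and 1.35 in RASV12 cells, and 2.33 and 2.21 on shp53 replicates 2 and 3, since the spot on shp53 replicate 1 was marked as an outlier. Ncaph, a subunit of condensin I, read 1.54, 2.72 and 2.56 in RASV12-first cells, 1.35, 2.39 and 2.31 in shp53-first cells, 0.96, 0.74 and 0.96 in RASV12 cells and 1.13, 1.46 and 1.12 in shp53 cells. For both condensin genes the RASV12-first arrays lay above all RASV12 and all shp53 arrays. Smc2 and Ncapg, their partners in the complex, spanned 2.05 and 2.23 log2 units.

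Of the genes that promote anaphase and sister separation, Cdc20, the activator of the anaphase-promoting complex, read 1.72, 4.13 and 4.26 in RASV12-first cells, 1.22, 3.48 and 3.47 in shp53-first cells, 2.12, 1.29 and 2.12 in RASV12 cells and 2.67, 3.16 and 2.75 in shp53 cells. Ube2c, the ubiquitin-conjugating enzyme of that complex, read 1.74, 3.75 and 3.67 in RASV12-first cells, 0.85, 3.0 and 3.19 in shp53-first cells, 0.86, 0.86 and 0.95 in RASV12 cells and 1.71, 2.0 and 1.81 in shp53 cells. Espl1, or separase, the protease that cuts cohesin, read -2.95, -0.85 and -0.48 in RASV12-first cells, -3.56, -0.97 and -1.25 in shp53-first cells, -3.35, -4.36 and -3.75 in RASV12 cells and -3.08, -2.43 and -3.21 in shp53 cells. On shp53-first replicate 1, Cdc20 lay below every array with 1 vector, and Ube2c lay level with the RASV12 arrays. The cytokinesis genes Anln, Ect2 and Racgap1, which organise the contractile ring, spanned 2.71, 3.35 and 2.66 log2 units, each lowest on RASV12 replicate 2.

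Pttg1, or securin, the inhibitor of separase, was unlike the rest. Its brighter probe read 3.91, 3.59 and 3.62 in RASV12-first cells, 3.82, 3.60 and 3.47 in shp53-first cells, 3.13, 3.54 and 3.18 in RASV12 cells and 2.84, 2.92 and 2.92 in shp53 cells, so that the arrays of both groups with both vectors lay above all shp53 arrays and replicate 1 was the highest of the RASV12-first and shp53-first groups. Its second, dimmer probe read -3.84, -3.41 and -3.29 in RASV12-first cells, -3.85, -3.01 and -3.12 in shp53-first cells, -3.95, -4.16 and -4.63 in RASV12 cells and -4.49, -4.49 and -4.60 in shp53 cells. There replicate 1 was the lowest of the groups with both vectors, as for the other mitosis genes, so the 2 probes of this gene disagree within groups. Over the 12 arrays the median correlation of Pttg1 with the other members was 0.211, while for the other 42 genes these medians ran from 0.896 to 0.978. Over all 903 pairs of mitosis genes the median r was 0.955, and 785 pairs exceeded 0.9. These are descriptions over 12 arrays that share their scaling and the same arrays that stand apart. 13 of the genes had several kept probes, and their probes differed in sign for 3 genes (Pttg1, Dlgap5 and Mad2l1), in the comparison of the 2 orders alone. Fitted probe by probe, calls also differed within some genes. In RASV12-first against RASV12 cells, Pttg1 and Kif2c were called on 1 of 2 probes. In shp53-first against RASV12 cells this held for Pttg1 and Tpx2, and Mad2l1 was called on 2 of 3. In RASV12 against shp53 cells Mad2l1 was called on 1 of 3.

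Array by array, the median of the 43 genes was 0.25, 2.18 and 2.09 in RASV12-first cells, -0.42, 1.59 and 1.66 in shp53-first cells, -0.26, -0.77 and -0.36 in RASV12 cells and 0.32, 0.82 and 0.58 in shp53 cells. On RASV12-first replicates 2 and 3 and shp53-first replicate 2, all 43 genes exceeded all 6 arrays with 1 vector, and on shp53-first replicate 3 it was 42, all but Pttg1. Replicate 1 of the RASV12-first group exceeded all 6 for 5 genes (Pttg1, Bub1b, Smc4, Ncaph and Cdk1) and lay above all RASV12 arrays for 38. Replicate 1 of the shp53-first group exceeded all 6 for Pttg1 alone. It lay above all RASV12 arrays for 17 genes, among them for 21 and below all of them for 5, and below all shp53 arrays for 35. In RNA from a whole culture, fewer cells in mitosis and less mitotic RNA per cell cannot be told apart.

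**Figure D2:**
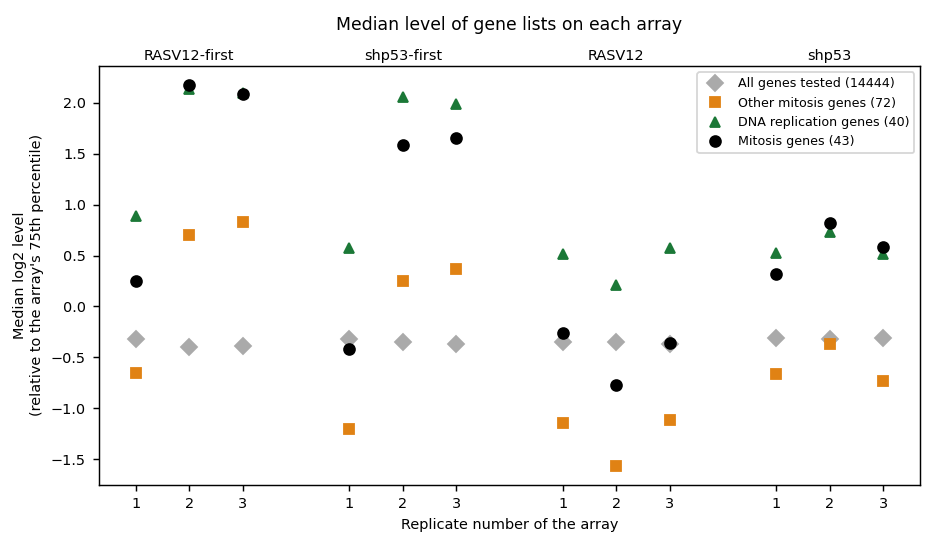
Median log2 level (75th percentile of the array at 0) of the 43 mitosis genes (black circles), 72 other mitosis genes (orange squares), 40 DNA replication genes (green triangles) and all 14444 genes tested (grey diamonds) on each array, by group and replicate. The mitosis genes range from -0.77 on RASV12 replicate 2 to 2.18 on RASV12-first replicate 2. On replicate 3 of the RASV12-first group the mitosis and replication markers overlap in the plot, at 2.09 and 2.10. Levels are not compared between the lists.

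The first comparison sets the 2 orders of transduction against each other, which is the question the series title raises. No mitosis gene passed in limma (0 higher and 0 lower of 43, where 15.8% of all genes were called, 7.33% as higher and 8.47% as lower), and at an unadjusted p under 0.05 there was 1 gene, Smc4. It averaged 3.45 in RASV12-first and 2.76 in shp53-first cells, a log2 difference of 0.69 ± 0.30, adjusted p = 0.161. Next were Bub1b (0.89 ± 0.43, adjusted p = 0.205), Aurka (0.70 ± 0.55, adjusted p = 0.45) and Cenpe (0.71 ± 0.57, adjusted p = 0.466), whose values overlapped between the orders. The median log2 difference of the 43 genes was 0.47, with 39 positive and 4 negative, and their median SE was 0.61, against 0.23 for all genes.

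The labels do not say that replicate numbers pair the samples, and a number is also a slide. Between arrays of the same number, most of the genes differed the same way at each number. RASV12-first replicate 1 was higher than shp53-first replicate 1 for 41 of 43 mitosis genes, with a median difference of 0.54. At replicate 2 it was 34 genes and 0.33, and at replicate 3, 40 genes and 0.46. 34 of the 43 (79.1%) were higher in RASV12-first cells at 3 of 3 numbers, where 30.7% of all genes were, and Ttk alone was lower at all of them. Bub1b differed by 0.94, 0.79 and 0.94 and Smc4 by 0.57, 0.77 and 0.73 at replicates 1, 2 and 3. The differences of Birc5 (0.22, -0.06 and -0.20) and Mki67 (0.83, -0.17 and -0.15) changed sign.

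With the replicate as a block and all 12 arrays in the fit, 0 of 43 passed in limma. Fitting the RASV12-first and shp53-first arrays by themselves, with that block, 10 passed as higher in RASV12-first cells and 0 as lower (17.3% of all genes were called in that fit). They were Bub1b (0.89 ± 0.11, adjusted p = 0.016), Ccna2 (0.69 ± 0.11, adjusted p = 0.028), Smc4 (0.69 ± 0.11, adjusted p = 0.0286), Racgap1, Ect2, Cdc20, Cenpe, Ube2c, Aurka and Foxm1. Without the arrays that stand apart, with 2 arrays a group, 25 passed as higher and 0 as lower, where 48% of all genes were called. With the closest arrays averaged 0 passed, where 2.93% of all genes did. Leaving out 1 array at a time gave 0 to 2 calls, the 2 of them without RASV12-first replicate 1.

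**Figure D3:**
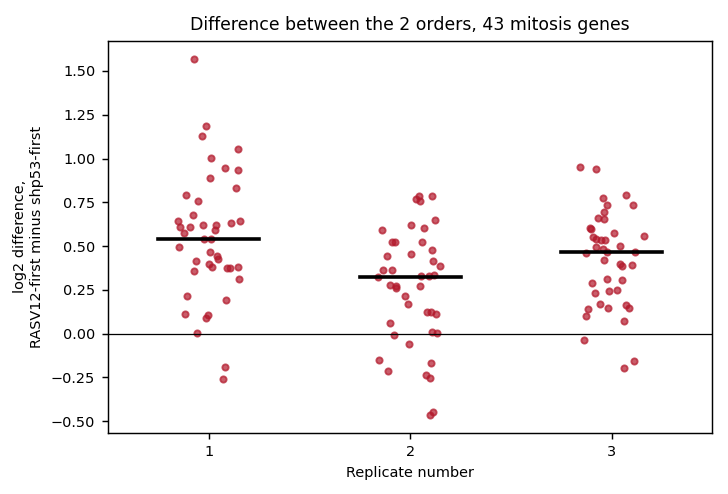
Log2 difference, RASV12-first minus shp53-first, of each of the 43 mitosis genes (points) between arrays of the same replicate number, with the median as a bar. The medians are 0.54, 0.33 and 0.46, and 41, 34 and 40 genes lie above 0.

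Against RASV12 alone, most mitosis genes were higher in RASV12-first cells. 32 of 43 passed as higher and 0 as lower in limma, where 38.8% of all genes were called, 17.2% as higher and 21.7% as lower. The median log2 fold change was 1.84, with 43 of 43 positive, and for 38 genes all 3 RASV12-first arrays lay above all 3 RASV12 arrays, which held for 22.8% of all genes. The smallest p-values belonged to Smc4 (2.29 ± 0.30, adjusted p = 4.04e-04), Bub1b (2.69 ± 0.43, adjusted p = 9.12e-04), Cenpa (2.08 ± 0.46, adjusted p = 0.00564) and Tpx2 (1.95 ± 0.47, adjusted p = 0.00871).

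By role, all 6 tested genes of the cyclin-CDK switch passed as higher, including Ccnb1 (1.96 ± 0.65, adjusted p = 0.0361), Cdk1 (1.84 ± 0.56, adjusted p = 0.0243) and Foxm1 (2.11 ± 0.68, adjusted p = 0.0327). So did all 4 checkpoint genes, 4 of 4 tested kinetochore genes, 6 of 6 condensation genes with Top2a (2.0 ± 0.68, adjusted p = 0.0396) and Mki67 (1.80 ± 0.64, adjusted p = 0.0466), and 3 of 3 cytokinesis genes. Of the kinases and assembly factors 4 of 6 passed, Aurka among them (2.05 ± 0.55, adjusted p = 0.0139). Of the motors and bundlers it was 2 of 7, Kif11 (2.49 ± 0.69, adjusted p = 0.0167) and Nusap1. The median log2 fold change of the motors and bundlers was 1.78, against 1.73 for the cytokinesis and 1.66 for the condensation genes. The counts by role therefore do not rank the sizes of the changes. Ube2c (2.16 ± 0.63, adjusted p = 0.0212) and Espl1 (2.39 ± 0.75, adjusted p = 0.028) passed among the 4 anaphase genes, and Incenp among the 3 passenger genes. Of the genes that passed, Cdc25c and Ttk were well above background on 2 and 1 of the 3 RASV12 arrays, so their folds rest on dim spots. The 11 that did not pass were Pttg1, Kif2c, Prc1, Kif23, Kif4, Kif20a, Hmmr, Plk1 (1.68 ± 0.76, adjusted p = 0.104), Cdc20 (1.52 ± 0.73, adjusted p = 0.124), Birc5 (1.19 ± 0.63, adjusted p = 0.163) and Aurkb (1.46 ± 0.82, adjusted p = 0.182).

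The count moved with the arrays. Without RASV12-first replicate 1, 41 genes passed (43.5% of all genes), and without shp53-first replicate 1, which enters through the shared spread, also 41 (42.4% of all genes). Without RASV12-first replicate 2 or 3 it was 8 and 7, where 29.9% and 29.6% of all genes passed. Without RASV12 replicate 1, 2 or 3 it was 18, 13 and 19, where 28.8%, 35.3% and 29.8% did. With the closest arrays averaged, which leaves 2 values a group, 2 passed (Smc4 and Bub1b, where 10.3% of all genes did), and without the 4 arrays that stand apart 43 of 43 passed, where 66.8% of all genes did. Macrophage markers moved here too. Of 11 tested, 3 were called lower in RASV12-first cells and 0 higher, with a list median of -4.63, -4.85 and -5.02 in RASV12-first cells, against -2.34, -1.87 and -2.34 in RASV12 cells, and their part in the mitosis values was not tested.

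In shp53-first against RASV12 cells, 10 of 43 mitosis genes passed as higher in limma and 0 as lower, where 25.4% of all genes were called, 10.2% as higher and 15.1% as lower. The 10 were Smc4 (1.60 ± 0.30, adjusted p = 0.00508), Bub1b (1.80 ± 0.43, adjusted p = 0.0132), Cdc25c (2.36 ± 0.60, adjusted p = 0.0172), Ttk (2.05 ± 0.53, adjusted p = 0.0184), Dlgap5 (1.89 ± 0.50, adjusted p = 0.0201), Ndc80, Cenpa, Ncaph, Nuf2 and Tpx2. They include 3 of 4 tested kinetochore genes, 2 of 4 checkpoint genes and 0 of the 7 motors and bundlers. The median log2 fold changes of these roles were 1.68, 1.65 and 1.53, so the counts do not rank the sizes of the changes. Cdc25c and Ttk were well above background on 2 and 1 of the 3 RASV12 arrays, so their folds rest on dim spots. Ccnb1 (1.41 ± 0.65, adjusted p = 0.14), Cdk1 (1.29 ± 0.56, adjusted p = 0.119) and Plk1 (1.34 ± 0.76, adjusted p = 0.227) did not pass. The median log2 fold change was 1.44, all 43 differences were positive, and 16 genes lay above all RASV12 arrays on all 3 shp53-first arrays, as did 18.9% of all genes. Of 11 macrophage markers, 3 were called lower in shp53-first cells and 0 higher, with a list median of -4.92, -4.62 and -4.46 in shp53-first cells, and their part was not tested here either. 41 genes passed without shp53-first replicate 1 (26.2% of all genes) and 23 without RASV12-first replicate 1 (31.4%). Without shp53-first replicate 2 or 3 it was 1 and 2, where 16.5% and 17.7% of all genes passed. Without RASV12 replicate 1, 2 or 3 it was 3, 5 and 3, where 14.9%, 24.1% and 14.8% did. The count was 0 with the closest arrays averaged, where 2.71% of all genes passed, and 43 without the arrays that stand apart, where 58.2% did. The 2 comparisons share the RASV12 arrays, and the difference between their counts is not itself a test of the order.

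**Figure D4:**
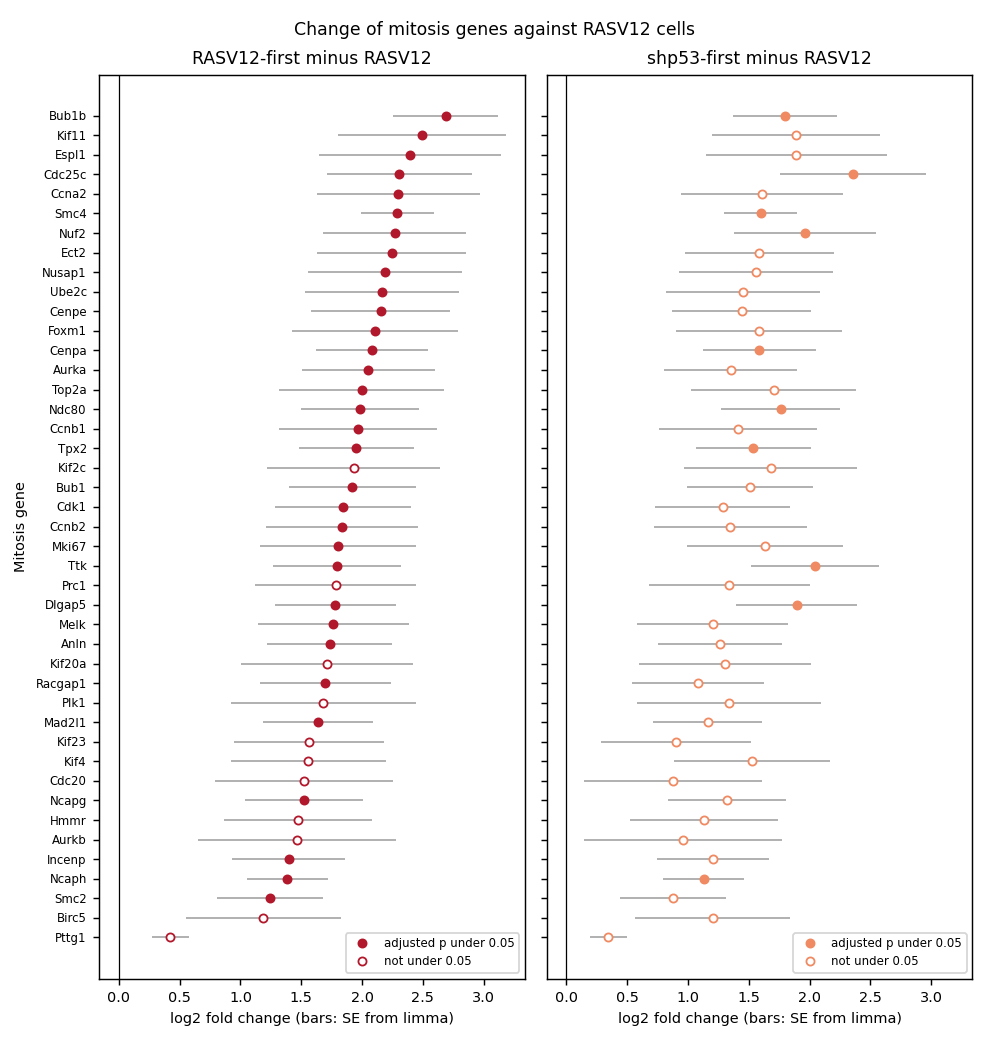
Log2 fold change of each of the 43 mitosis genes (rows, the same order in both panels) in RASV12-first minus RASV12 cells (left) and shp53-first minus RASV12 cells (right), with bars for the SE from limma (n = 3 arrays a group) and filled points for adjusted p under 0.05. 32 points are filled on the left and 10 on the right, and all 43 lie above 0 in both.

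Against shp53 alone the differences were smaller. In RASV12-first cells 4 of 43 mitosis genes passed as higher in limma and 0 as lower, where 45.5% of all genes were called, 21.7% as higher and 23.8% as lower. They were Pttg1 (0.81 ± 0.15, adjusted p = 0.00181), Bub1b (1.91 ± 0.43, adjusted p = 0.0047), Smc4 (1.18 ± 0.33, adjusted p = 0.0173, fitted on 2 shp53 arrays) and Ncaph (1.04 ± 0.34, adjusted p = 0.0282). With Cdk1 (1.02 ± 0.56, adjusted p = 0.159) they were also the 5 genes whose RASV12-first arrays all lay above the shp53 arrays, which held for 27.9% of all genes. The median log2 fold change was 0.97, with 43 of 43 positive. Macrophage markers moved with this comparison too: 9 of 11 tested were called lower and 0 higher, with a list median of -4.63, -4.85 and -5.02 in RASV12-first cells, against 3.21, -1.28 and 3.12 in shp53 cells, and their part in the mitosis values was not tested. Without RASV12-first replicate 1, 27 genes passed (51.2% of all genes), and without shp53-first replicate 1 it was 13 (49.4%). Without RASV12-first replicate 2 or 3 or shp53 replicate 3 it was 2, where 36.7%, 36.5% and 34.9% of all genes passed. Without the 4 arrays that stand apart 43 passed, where 72.3% of all genes did, and with the closest arrays averaged 0, where 17.2% did.

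In shp53-first cells Pttg1 alone passed as higher than in shp53 cells in limma (0.73 ± 0.15, adjusted p = 0.00425), 1 of 43 with 0 lower, where 37.6% of all genes were called, 17.3% as higher and 20.3% as lower. The next were Bub1b (1.03 ± 0.43, adjusted p = 0.0851), Ncaph (0.78 ± 0.34, adjusted p = 0.0925) and Ttk (1.19 ± 0.53, adjusted p = 0.102). The macrophage list was called lower for 9 of 11 markers here as well, with a median of -4.92, -4.62 and -4.46 in shp53-first cells. The median of the mitosis genes was 0.50, with 41 positive. Cdc20 (-0.14 ± 0.73, adjusted p = 0.897) and Ccnb2 (-0.11 ± 0.63, adjusted p = 0.9) were the negative ones. Without the arrays that stand apart all 43 passed as higher, where 68.4% of all genes were called, with Cdc20 at 0.77 ± 0.07, adjusted p = 1.70e-04 and Ccnb2 at 0.54 ± 0.09, adjusted p = 0.00261. 12 passed without shp53-first replicate 1 (39.8% of all genes), 4 without RASV12-first replicate 1 (43.5%) and 0 with the closest arrays averaged (11.8%).

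RASV12 alone and shp53 alone are the comparison with the tightest replicates. 2 of 43 mitosis genes fell in RASV12 cells in limma, Smc4 (-1.11 ± 0.33, adjusted p = 0.0353) and Cenpa (-1.44 ± 0.46, adjusted p = 0.0413), and 0 rose, where 27.1% of all genes were called, 12.8% as lower and 14.3% as higher. For 39 of 43 genes, however, all 3 RASV12 arrays lay below all shp53 arrays, which held for 23.9% of all genes. The exceptions were Smc2, Ncapg and Kif23, which overlapped, and Pttg1 (0.39 ± 0.15, adjusted p = 0.0897), whose RASV12 arrays lay above the shp53 arrays. The median log2 fold change was -0.92, with 42 negative. Cdc25c (-1.54 ± 0.60, adjusted p = 0.0839) and Dlgap5 (-1.25 ± 0.50, adjusted p = 0.0897) did not pass.

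The fit on 12 arrays shares 1 spread per gene over all groups, and the RASV12-first and shp53-first arrays had the larger SDs. In a fit of the RASV12 and shp53 arrays alone, 34 mitosis genes passed as lower and 0 as higher (33.3% of all genes were called). They included Cenpa (-1.44 ± 0.12, adjusted p = 6.70e-04), Ccnb2 (-1.46 ± 0.14, adjusted p = 0.00114), Ube2c (-0.95 ± 0.12, adjusted p = 0.00243) and Kif20a (-1.02 ± 0.14, adjusted p = 0.00355). With the replicate as a block in that fit it was 12 of 43 as lower, a share close to the 25.1% of all genes called there in either direction. Without the arrays that stand apart 36 passed as lower and 1, Pttg1, as higher, where 58.5% of all genes were called, and 0 passed with the closest arrays averaged, where 7.12% did. In the fit on all groups the 2 calls became 5 without RASV12-first replicate 1 (32.6% of all genes), 7 without shp53-first replicate 1 (30.4%) and 1 without RASV12-first replicate 2 or shp53 replicate 1 (25.3% and 18.9%). They became 0 without any 1 of the 3 RASV12 arrays or shp53 replicate 2 or 3, where 18.9% to 26.7% of all genes passed. Macrophage markers moved with this comparison. Of 11 tested, 9 were called lower in RASV12 cells and 0 higher, and the median of the list was -2.34, -1.87 and -2.34 on the RASV12 arrays, against 3.21, -1.28 and 3.12 on the shp53 arrays. Csf1r, Cd68, Cd14, Itgam, Fcer1g and C1qb were well above background on all 12 arrays, Adgre1 on 6 and Ptprc on 3. Shp53 replicate 2, with the lowest macrophage median of its group, was the shp53 array with the highest values for 40 of 42 mitosis genes. Cdkn1a, the gene of p21, rose in RASV12 cells (1.21 ± 0.16, adjusted p = 3.27e-04), with 3.52, 3.82 and 3.64 in RASV12 and 2.58, 2.14 and 2.61 in shp53 cells. The part of these in the mitosis values was not tested.

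**Figure D5:**
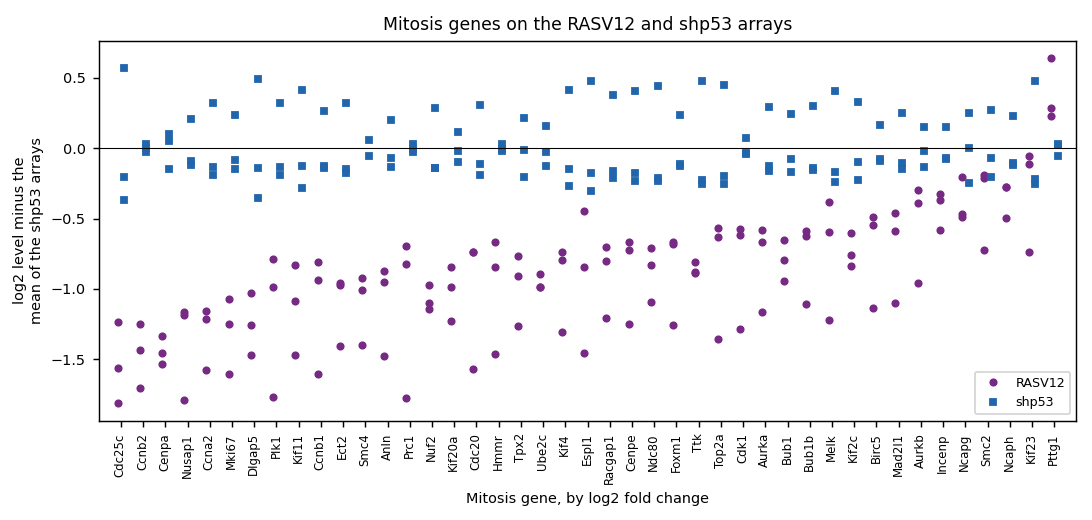
Log2 level of each of the 43 mitosis genes on the RASV12 arrays (purple circles) and the shp53 arrays (blue squares), minus the mean of the shp53 arrays, with genes ordered by log2 fold change. The circles lie below all squares for 39 genes, overlap for Smc2, Ncapg and Kif23, and lie above for Pttg1.

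The other genes of mitosis were read from a list of 73 further centromere, spindle and cytokinesis genes, 72 of them tested. The counts for this and the following lists come from all 12 arrays and were not run without the arrays that stand apart. The shares called higher and lower over all genes were 7.33% and 8.47% between the orders, 17.2% and 21.7% in RASV12-first against RASV12 cells, and 10.2% and 15.1% in shp53-first against RASV12 cells. Against shp53 cells they were 21.7% and 23.8% in RASV12-first cells, 17.3% and 20.3% in shp53-first cells and 14.3% and 12.8% in RASV12 cells. In RASV12-first against shp53-first cells 0 of the 72 passed. Against RASV12 cells, 52 rose and 1 fell in RASV12-first cells, while 26 rose and 1 fell in shp53-first cells. Against shp53 cells the counts were 24 and 0 in RASV12-first cells and 8 and 0 in shp53-first cells. 3 were higher and 5 lower in RASV12 than in shp53 cells. Cdc25b, a further activator of Cdk1, rose in RASV12-first against RASV12 cells (2.69 ± 0.30, adjusted p = 9.70e-05). Zwint, a kinetochore protein, was the gene that fell there (-1.10 ± 0.17, adjusted p = 7.73e-04), and it rose in RASV12 against shp53 cells (1.63 ± 0.17, adjusted p = 8.81e-05), as did Psrc1, a spindle protein (1.45 ± 0.13, adjusted p = 3.15e-05). Spc24, a subunit of the Ndc80 complex, fell in RASV12 against shp53 cells (-2.33 ± 0.40, adjusted p = 0.00175).

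The DNA replication genes, which act in S phase, before mitosis, had medians close to 0 between the orders (0.03) and between RASV12 and shp53 cells (-0.17), with 0 of 40 called in each. Against RASV12 cells 21 were higher in RASV12-first and 14 in shp53-first cells, with medians of 1.14 in both. Against shp53 cells it was 17 and 11, with medians of 1.03 and 0.87, and 0 were lower in any of these. The licensing factor Cdt1 rose in RASV12-first against RASV12 cells (2.30 ± 0.25, adjusted p = 9.30e-05). Like the mitosis genes, they read lower on replicate 1 of both groups with both vectors, for 39 and 40 of 40 genes, with median differences of -1.21 and -1.24.

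Of the 22 DREAM, MuvB and E2F regulators, 9 rose and 1 fell in RASV12-first against RASV12 cells, with Rb1, the retinoblastoma gene (-1.15 ± 0.22, adjusted p = 0.00265), as the gene that fell and the activator E2f2 (3.70 ± 0.28, adjusted p = 7.59e-06) with the smallest adjusted p, and 7 rose and 1 fell in shp53-first cells. Against shp53 cells 11 rose and 2 fell in RASV12-first cells, and 5 rose and 1 fell in shp53-first cells. Nfyb, a subunit of the CCAAT-binding NF-Y, was the 1 of 22 that passed between the orders (0.50 ± 0.13, adjusted p = 0.0285). It had no value on RASV12-first replicate 2, and read 0.41 and 0.46 on replicates 1 and 3 of that group. In RASV12 against shp53 cells 1 rose and 1 fell. A list of 19 genes held subunits and regulators of the anaphase-promoting complex and its ubiquitin-conjugating enzyme Ube2s. Bub3 is also among the other mitosis genes. Of the 19, 5 rose and 1 fell in RASV12-first against RASV12 cells, among the risers the subunit Cdc26 (0.80 ± 0.12, adjusted p = 6.57e-04) and the inhibitor Fbxo5 (2.18 ± 0.60, adjusted p = 0.0166). The counts for this list were 2 and 0 in shp53-first against RASV12 cells, 2 and 1 in RASV12-first against shp53 cells, 0 and 2 in shp53-first against shp53 cells, 0 and 3 in RASV12 against shp53 cells, and 0 between the orders.

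Of 11 tested genes that restrain or release CDK1 at the G2 checkpoint, 2 rose and 3 fell in RASV12-first against RASV12 cells, and 1 rose and 3 fell in shp53-first cells. The risers were Cdc25b in both and Bora, a cofactor of Aurora A, in RASV12-first cells, and both act for mitotic entry. Cdc25b was also counted among the other mitosis genes. Ccng1, cyclin G1, a p53 target (-1.63 ± 0.18, adjusted p = 9.41e-05), Rprm, a p53 target tied to G2 arrest (-2.98 ± 0.33, adjusted p = 1.02e-04), and Cdkn1a (-1.29 ± 0.16, adjusted p = 1.74e-04) were those that fell in RASV12-first cells and also in shp53-first cells. Rprm was not as low with the hairpin alone, at -1.14, -0.10 and -0.97 in shp53 and -0.72, -0.10 and -0.52 in RASV12 cells. Ccng1 read 2.86, 2.78 and 3.09 in shp53 and 4.22, 4.59 and 4.39 in RASV12 cells. Against shp53 cells 2 rose and 1 fell in each of RASV12-first, shp53-first and RASV12 cells, and 0 passed between the orders. Cdkn1a read 2.52, 2.25 and 2.33 in RASV12-first and 2.85, 2.69 and 2.88 in shp53-first cells, a difference of -0.44 ± 0.16, adjusted p = 0.0864.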

How the data were processed

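RNA of 12 samples, 100 ng each per the labels' protocols, was hybridised to 1-colour Agilent arrays. The labels do not say which samples came from separate cultures beyond calling them biological replicates. Per the file headers, the deposited processed intensity of a spot comes from Feature Extraction, which subtracted background and removed spatial trends on each array by itself, without scaling arrays to each other. The headers name version 11.5.1.1 and the submitters' processing notes 10.7.3.1. The median pixel intensities of spot and local background, and flags of 0 or 1, another kind of value, were deposited in the same files. The authors also deposited log2 values for 25916 probes, which correlated at 0.9898 to 0.9998 with log2 signals rebuilt here (less the 75th percentile and the median of the shp53 arrays). Of 43020 spots that were not controls, between 56.6% and 62.4% exceeded background clearly by the scanner's flag. Precision is limited by the number of arrays.

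Spots marked as non-uniform or outlying were left out (1717 values, 0.333%), 0 were saturated, the 75th percentile of the log2 signal was subtracted and spots of a probe were averaged. A probe was kept (23899 of 39429) if some group had it well above background on each of its 3 arrays. Accessions were named through a RefSeq table of GRCm38.p6, while the array design names an older build, and 11099 probes had no gene name. The brightest kept probe stood for a gene. All 12 arrays were fitted in limma 3.58.1 (R 4.3.3, data.table version 1.17.8) with 1 mean per group and moderated by empirical Bayes. Calls are at an adjusted p (Benjamini-Hochberg, over the 14444 genes of a comparison) under 0.05. Values after ± are standard errors from limma with 3 arrays a group, unless arrays or spots are stated as missing or left out. The smallest p of an exact two-sided permutation test between groups of this size is 0.1. The script was tested on simulated data.

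The members and lists were chosen with earlier results of these data known. All 44 members are described by role. Values on every array are given for a set of genes chosen by name and for the 4 smallest p-values of each comparison. Other lists are given by counts, with genes named among the 3 smallest adjusted p-values of a comparison, beside Trp53, Cdkn1a and Hras. Bora was named after its values were seen.

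Replicate numbers were the same as slide numbers, each slide with 1 array of each group, so slide and replicate form 1 block. Deviations from the group means of RASV12-first and shp53-first arrays of the same number correlated at 0.598, 0.447 and 0.32 over all genes. Replicate 1 stood apart in both groups, and a shift shared by those arrays alone would give positive values at every number. These correlations therefore cannot show that the cultures were matched by number. In every other pair of groups at least 1 of the 3 correlations was under 0.1, which does not show that those samples are unpaired. Samples of the same number share a slide in all groups. Alternatives were background correction by normexp with an offset of 50 (on median pixel signals, since the mean signal was not among the columns), quantile and median scaling, 2 filters, the mean of probes, the block, fits of 2 groups, a trended and robust spread, the values in the authors' table, and leaving out or averaging arrays. A further run of normexp, in which 77 local backgrounds beyond 5 times their array median were replaced, was chosen after seeing the data.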

Additional observations from a re-analysis of the deposited data

How the results depend on the processing

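Members were called in 0, 32, 4, 10, 1 and 2 cases in RASV12-first against shp53-first, RASV12-first against RASV12, RASV12-first against shp53, shp53-first against RASV12, shp53-first against shp53 and RASV12 against shp53 cells, and in the alternatives run the calls were higher in all but the last comparison and lower in the last, apart from Pttg1. Normexp gave 0, 6, 0, 0, 0 and 0 calls, as it lowered calls over all genes to between 0.45% and 5.68%, and moved the mitosis median on RASV12-first replicate 3 to 0.54. With extreme local backgrounds replaced it gave 0, 32, 6, 10, 4 and 1, where 8.89%, 29.2%, 36.6%, 18.7%, 30.4% and 20.8% of all genes passed. The main fit called 15.8%, 38.8%, 45.5%, 25.4%, 37.6% and 27.1% of all genes. Centring on the array median gave 0, 35, 7, 6, 1 and 0, where 19.8%, 37.6%, 49.6%, 20.4%, 33.2% and 23.9% of all genes passed. No filter gave 0, 26, 4, 7, 1 and 0, where 8.51%, 23%, 28.4%, 13.9%, 23.5% and 15.9% did. The filter on all 12 arrays gave 0, 31, 3, 7, 1 and 1, where 14%, 38.3%, 43.6%, 24.5%, 35.2% and 24.4% did. The mean of probes gave 0, 34, 4, 11, 1 and 2, where 16.2%, 39.3%, 45.5%, 25.6%, 37.9% and 27.3% of all genes passed. It lowered the mitosis median on every array. The medians became -0.20, 1.12 and 1.40 in RASV12-first cells and -1.12, 0.996 and 0.87 in shp53-first cells. They became -0.69, -1.31 and -0.72 in RASV12 cells and -0.35, 0.23 and -0.28 in shp53 cells. The replicate block gave 0, 37, 7, 15, 2 and 2, where 15.7%, 39.5%, 46.2%, 25.9%, 38.4% and 27.2% of all genes passed. Fits of 2 groups alone gave 0, 31, 3, 8, 1 and 34, where 9.56%, 33.2%, 40.6%, 21.6%, 33.8% and 33.3% did. These fits with the replicate block gave 10, 22, 4, 1, 1 and 12, where 17.3%, 23.2%, 32.4%, 8.94%, 25.1% and 25.1% did. Whether replicate numbers pair the samples is not settled for any comparison. The closest arrays averaged gave 0, 2, 0, 0, 0 and 0, where 2.93%, 10.3%, 17.2%, 2.71%, 11.8% and 7.12% of all genes passed. Leaving out the arrays that stand apart gave 25, 43, 43, 43, 43 and 37 calls, where 48%, 66.8%, 72.3%, 58.2%, 68.4% and 58.5% did. There Ccnb2 (log2 0.54) and Cdc20 (0.77) turned from lower to higher in shp53-first against shp53 cells, called in that setting alone. Leaving out 1 array at a time gave 0 to 2, 7 to 41, 2 to 27, 1 to 41, 1 to 12 and 0 to 7 calls. Quantile scaling, the trended and robust spread and the authors' table kept every count within 1.5 times. The causes were not tested. Aurkb, Cdc25c and Ttk were not above background on every RASV12 array, so their folds there rest on dim spots.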
